A study of Homo sapiens with 12 samples.

Results

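The DNAJ genes encode the HSP40 cochaperones. Their members were taken as every row whose gene name begins with DNAJA, DNAJB or DNAJC followed by a number and whose normalized count was at least 10 in at least 3 of 12 libraries. Of the 41 rows with such a name 40 passed, among 14866 genes listed and 13502 that passed the same filter. They comprised 39 protein-coding genes, with 4 in subfamily A, 9 in subfamily B and 26 in subfamily C, and the antisense RNA DNAJC3-AS1, which was kept apart. The row that did not pass was DNAJC22, at 3.19, 5.63 and 4.05 in the DSF+NSM libraries and at most 0.806 elsewhere.

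A DNAJ protein binds an unfolded or assembling client and, through its J domain, makes HSP70 hydrolyse ATP and close on that client. Subfamily A proteins add a glycine-rich stretch and a zinc finger to the J domain, subfamily B proteins have the glycine-rich stretch without the zinc finger, and subfamily C proteins share little beyond the J domain itself and are often tied to a place or a task, such as the endoplasmic reticulum, the mitochondrial inner membrane or the ribosome. Several cytosolic A and B genes belong to the heat shock response, and several members of the endoplasmic reticulum belong to the unfolded protein response.

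RNA was measured in SHI-1, an MLL-AF6-positive acute myeloid leukemia cell line, after 16 h with the solvent DMSO, with disulfiram at 0.3 µM given together with copper at 1 µM (DSF), with niclosamide at 5 µM (NSM), or with both drugs (DSF+NSM). Each group had 3 libraries, from 3 independent experiments. DSF always came with copper, so the agents of that pair cannot be told apart, and the sources used here do not state whether the DMSO and NSM cells received copper. The comparisons ask whether the drug combination changes transcription more than either drug, and all of them rest on a single cell line.

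Values are normalized counts per gene, made by the authors from read counts divided by a factor for each library, and the estimated depth was 10.2 to 19.0 M reads. Normalized counts summed to 22.7 to 25.6 M per DSF+NSM library, against 14.0 to 14.4 M for DMSO, 14.9 to 15.3 M for DSF and 16.5 to 17.5 M for NSM. The rRNA genes took 9.63% to 11.7% of these counts in DSF+NSM libraries and 1.88% to 3.58% in DMSO. Their share was 4.65% to 5.99% in DSF and 4.70% to 5.53% with NSM. NSM replicate 3 stood apart from the rest, with a Spearman correlation across genes of 0.939 and 0.950 to the other NSM libraries against 0.980 to 0.996 within groups elsewhere. Myeloid genes defined the cells as labelled, with MPO at 14454 to 62640 and SPI1 at 4477 to 8813, while the B cell gene MS4A1 was listed at 0 in all 12 libraries and FLT3 ranged from 2.95 to 530.4. These are bulk samples, in which fewer cells expressing a gene and less RNA per cell cannot be told apart.

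In DMSO cells the family was spread over many members. Levels between genes are compared per kilobase of the canonical transcript, since a longer transcript gives more reads. On that scale the highest was DNAJA1, a general cytosolic cochaperone, at 2012 ± 36.4 (SD, n = 3), followed by the splicing-associated DNAJC8 at 1915 ± 43.0 and the HSP70 and HSP90 adaptor DNAJC7 at 1475 ± 55.4. DNAJB1, the main heat-inducible HSP40, came next at 1219 ± 60.2 and did not differ beyond its spread from DNAJB11 at 1213 ± 41.5. The summed level per kilobase of the 39 protein-coding DNAJ genes and DNAJC22 was 14497, 14640 and 14306 in DMSO libraries, 23749, 26347 and 18840 in DSF, 14892, 14097 and 18350 with NSM, and 332838, 344976 and 247270 in DSF+NSM libraries. Every DSF+NSM library thus held far more DNAJ transcript than any other library, the DSF libraries lay above DMSO, and the NSM libraries overlapped DMSO.

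Most of that transcript was DNAJB1. Its share of the summed level per kilobase was 8.42% ± 0.358 in DMSO, 42.4% ± 9.42 in DSF, 8.63% ± 2.84 with NSM and 84.8% ± 0.386 with both drugs (SD over 3 libraries, n = 3). The share of all 26 passing subfamily C genes and DNAJC22 together went the other way, from 54.9% ± 0.163 in DMSO to 31.6% ± 7.53 in DSF and 3.42% ± 0.409 in DSF+NSM. Their summed level per kilobase was 7949 ± 105 in DMSO, 7074 ± 425 after DSF and 10386 ± 679 with both drugs. All normalized counts summed to 14.0 to 14.4 M in DMSO and 22.7 to 25.6 M in DSF+NSM libraries. The subfamily C sum rose by a smaller factor than these totals, so with equal sums it would lie below DMSO. Subfamily A made up 22.2% ± 0.258 in DMSO and 8.75% ± 0.460 in DSF+NSM, while its summed level per kilobase was 3216 ± 29.4 and 27122 ± 5758. The DNAJ genes as a whole made up 0.261% to 0.263% of all normalized counts in DMSO libraries and 2.50% to 3.14% in DSF+NSM libraries.

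**Figure D1:**
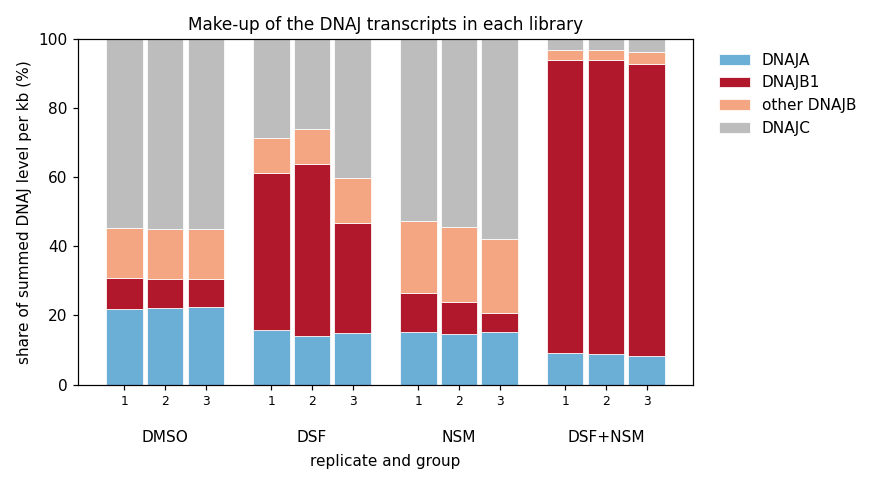
Stacked bars show, for each of the 12 libraries, how the summed DNAJ level per kilobase divides into subfamily A, DNAJB1, the other subfamily B genes and subfamily C (vertical axis, percent of the summed level; horizontal axis, replicate within group). DNAJB1 takes 8.07% to 8.79% in DMSO, 31.8% to 49.97% in DSF, 5.55% to 11.2% with NSM and 84.6% to 85.2% in DSF+NSM libraries.

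DNAJB1 itself rose with DSF and far more with both drugs. Its normalized count was 2856, 2756 and 2589 in DMSO, 24135, 29517 and 13447 in DSF, 3726, 2903 and 2284 with NSM, and 631025, 659184 and 468761 in DSF+NSM libraries. No DSF or DSF+NSM library overlapped DMSO, the NSM libraries fell on both sides of DMSO, and DSF replicate 3 and DSF+NSM replicate 3 were the lowest of their groups. Against DMSO the log2 fold change on the log2(value + 1) scale was 2.96 ± 0.26 (standard error) for DSF, which is 7.77-fold, with a limma adjusted p of 1.28e-05. For DSF+NSM it was 7.73 ± 0.26, or 212-fold (limma adjusted p = 6.75e-10), the 21st largest rise among 13502 genes. For NSM the difference was 0.09 ± 0.26 (limma adjusted p = 0.787), with an interval from -0.47 to 0.65. DNAJB1 took 0.0182% to 0.0205% of all normalized counts in DMSO libraries and 2.07% to 2.62% in DSF+NSM libraries. The annotation puts DNAJB1 on chromosome 19 of GRCh38 from 14514769 to 14560391 on the minus strand, where 525 exonic bases are shared with TECR on the opposite strand, and lists 2 pseudogenes.

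Promoter stretches of DNAJB1, DNAJA4 and DNAJB6 are shown because these genes are among the largest rises with both drugs and hold heat shock elements, the short inverted repeats bound by heat shock factors. They are taken from RefSeq (GRCh38.p14) and are written 5′ to 3′ on the strand of the gene. Each lies upstream of a RefSeq start and outside annotated exons, but within the span that the annotation gives the gene. Capitals mark matches to a heat shock element of 2 units, spelled GAANNTTC or TTCNNGAA, and in DNAJB6 a run of 3 units that contains overlapping matches of 2 units. DNAJB1 is read from chr19:14518408-14518647 on the minus strand, DNAJA4 from chr15:78264394-78264543 on the plus strand and DNAJB6 from chr7:157336774-157336965 on the plus strand.
DNAJB1: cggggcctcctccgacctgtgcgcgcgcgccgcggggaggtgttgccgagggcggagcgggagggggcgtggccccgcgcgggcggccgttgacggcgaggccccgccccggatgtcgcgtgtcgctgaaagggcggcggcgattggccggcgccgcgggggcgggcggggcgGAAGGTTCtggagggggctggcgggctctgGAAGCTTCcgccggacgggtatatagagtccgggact
DNAJA4: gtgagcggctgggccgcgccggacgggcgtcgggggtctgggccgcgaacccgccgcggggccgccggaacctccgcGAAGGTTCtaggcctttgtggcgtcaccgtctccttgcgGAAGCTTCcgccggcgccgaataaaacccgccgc
DNAJB6: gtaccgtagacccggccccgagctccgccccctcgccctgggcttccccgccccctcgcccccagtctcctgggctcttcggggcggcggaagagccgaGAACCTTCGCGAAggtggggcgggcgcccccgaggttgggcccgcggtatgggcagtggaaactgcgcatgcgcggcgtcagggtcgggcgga

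The DNAJB1 and DNAJA4 stretches carry the same pair of elements, GAAGGTTC and GAAGCTTC. They lie at 77 to 70 and 47 to 40 bases before this DNAJB1 start and at 91 to 84 and 52 to 45 bases before this DNAJA4 start. Both genes have other RefSeq starts, and the 250 bases before each of those held 0 elements of 2 units. One of the other DNAJB1 starts had such an element at positions 1 to 8 after it. The windows searched on both strands run from 250 bases before to 50 after each start, and 36 of the 40 protein-coding DNAJ symbols in the tables had one. The element of 3 units was found in 2 of these 36 genes (5.56%), DNAJB6 and DNAJA1, against 0.608% of 27305 genes with a window. In DNAJA1 it lies at positions 3 to 15 after the start, and is not printed. The form of 2 units was found in 7 of 36 genes (DNAJA1, DNAJA4, DNAJB1, DNAJB4, DNAJB6, DNAJC6 and DNAJC15), or 19.4%, a share close to the 16.2% of all genes. DNAJB2, which rose by 3.15 on the log2 scale with both drugs, held neither form. The antioxidant response element, TGACNNNGC, was found in 4 of 36 genes (11.1%) against 16.1% of all genes. No window of the 36 held the endoplasmic reticulum stress element, found in 0.0916% of all genes, or the ATF4 and CHOP site TGATGCAAT, found in 0.293%. A match describes these letters in this window and shows no binding.

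Called below means an adjusted p under 0.05 in limma over all 13502 genes. With DSF 7 of 39 DNAJ genes were called (17.9%), against 17.8% of all genes tested, which is the share of the background. Of these 5 were higher (DNAJA4, DNAJB1, DNAJB2, DNAJB9 and DNAJB12), with 11.9% of all genes higher, and 2 were lower (DNAJA1 and DNAJC19), with 5.95% of all genes lower. By subfamily, 4 of 9 B genes were higher and none lower, 1 of 4 A genes was higher and 1 lower, and of 26 C genes none was higher and 1 was lower. The median log2 fold change was -0.17 over A, 0.41 over B and -0.13 over C genes, beside 0.05 over all genes. The count was 17 (7 higher and 10 lower) without NSM replicate 3, which enters only through the shared estimate of the spread, where 41.1% of all genes were called.

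With NSM 21 of 39 were called (53.8%), against 49.1% of all genes. Higher were 14, beside 25.4% of all genes, and lower were 7, beside 23.7%. Subfamily B had 5 higher and none lower, subfamily A had 1 of each, and subfamily C had 8 higher and 6 lower. The median was -0.34 over A, 0.49 over B and 0.22 over C genes, beside 0.01 over all genes. Scaling every library to the same sum, which moves the median of all genes to -0.25 for NSM and -0.74 for DSF+NSM, gave 9 higher and 12 lower. Of all 13502 genes 2218 were then higher and 4510 lower.

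With both drugs 26 of 39 were called (66.7%), against 52.8% of all genes. Higher were 17, beside 28.3% of all genes, and lower were 9, beside 24.5%. In subfamily B 8 of 9 genes rose, the exception being DNAJB4, in subfamily A 2 of 4 rose and 1 fell, and in subfamily C 7 of 26 rose and 8 fell. The median was 1.49 over A, 1.45 over B and -0.05 over C genes, beside 0.03 over all genes. With equal sums the counts were 10 higher and 16 lower in all, beside 1534 higher and 7582 lower of all 13502 genes. Subfamily B then had 5 higher and none lower, where DNAJB9, DNAJB12 and DNAJB14 lost their call. The median of subfamily B was 0.67 beside -0.74 over all genes.

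**Figure D2:**
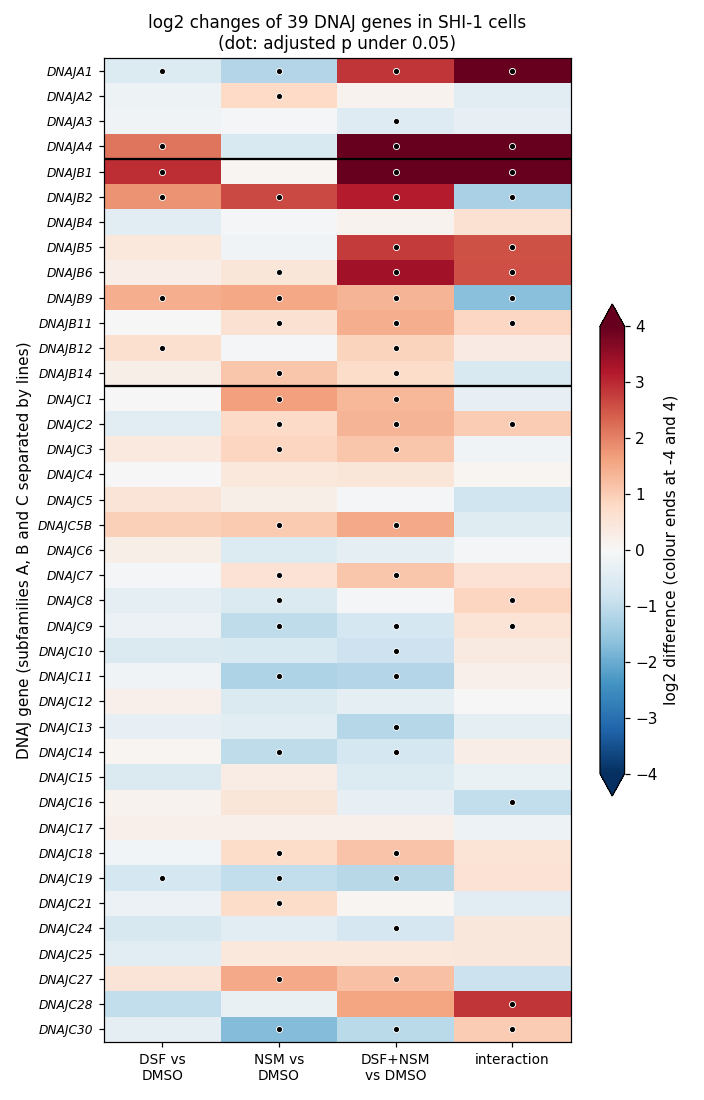
Each row is 1 of the 39 protein-coding DNAJ genes, ordered by subfamily, and each column a comparison, with colour giving the log2 difference and a dot an adjusted p under 0.05 from limma. In the DSF+NSM column 8 of 9 subfamily B rows are higher with a dot, while subfamily C holds 7 such rows that are higher and 8 that are lower.

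The 4 subfamily A genes did not move together. DNAJA4, a cytosolic member, was at 761, 789 and 724 in DMSO, 4677, 4368 and 1884 in DSF, 537, 483 and 461 with NSM, and 42513, 43206 and 23478 in DSF+NSM libraries. It therefore stood above every DMSO library with DSF, below every one with NSM, and highest of all with both drugs. The log2 fold change was 2.15 ± 0.31 after DSF (limma adjusted p = 0.000653), -0.62 ± 0.31 after NSM (limma adjusted p = 0.113) and 5.53 ± 0.31 with the combination (limma adjusted p = 4.68e-08), the last being 46.2-fold. With equal sums the difference for NSM, -0.89, was called as well (limma adjusted p = 0.0246). As for DNAJB1, replicate 3 was the lowest DSF and the lowest DSF+NSM library.

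DNAJA1 turned from a fall with each drug to a rise with both. Its values were 4630, 4762 and 4604 in DMSO, 3323, 3222 and 3123 in DSF, 1987, 1672 and 2663 with NSM, and 37632, 36289 and 27822 in DSF+NSM libraries, so that no treated group overlapped DMSO. It fell by 0.53 on the log2 scale with DSF (limma adjusted p = 0.0396) and by 1.17 with NSM (limma adjusted p = 9.34e-05), and rose by 2.85 ± 0.16, or 7.21-fold, with DSF+NSM (limma adjusted p = 5.55e-08). The call for DSF was lost when any 1 of the 3 DMSO or 3 DSF libraries or DSF+NSM replicate 2 was left out, with adjusted p up to 0.124 from limma and a log2 fold change of -0.56 to -0.51. The annotation lists 6 DNAJA1 pseudogenes, whose reads the counting could have divided.

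DNAJA2, the other constitutive cytosolic member, was at 1387 to 1393 in DMSO, 1174 to 1229 in DSF, 1985 to 3388 with NSM and 1399 to 1763 in DSF+NSM libraries. It was called with NSM alone among the treatments (log2 fold change 0.79 ± 0.18, limma adjusted p = 0.00334), and the difference for DSF+NSM, 0.13, became -0.65 with equal sums. DNAJA3, which works in mitochondria, fell by 0.52 with DSF+NSM (limma adjusted p = 0.0147), from 1286 to 1451 down to 892 to 1039. That call was lost without DMSO replicate 3, DSF+NSM replicate 1 or DSF+NSM replicate 2, at adjusted p of up to 0.0592 from limma.

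**Figure D3:**
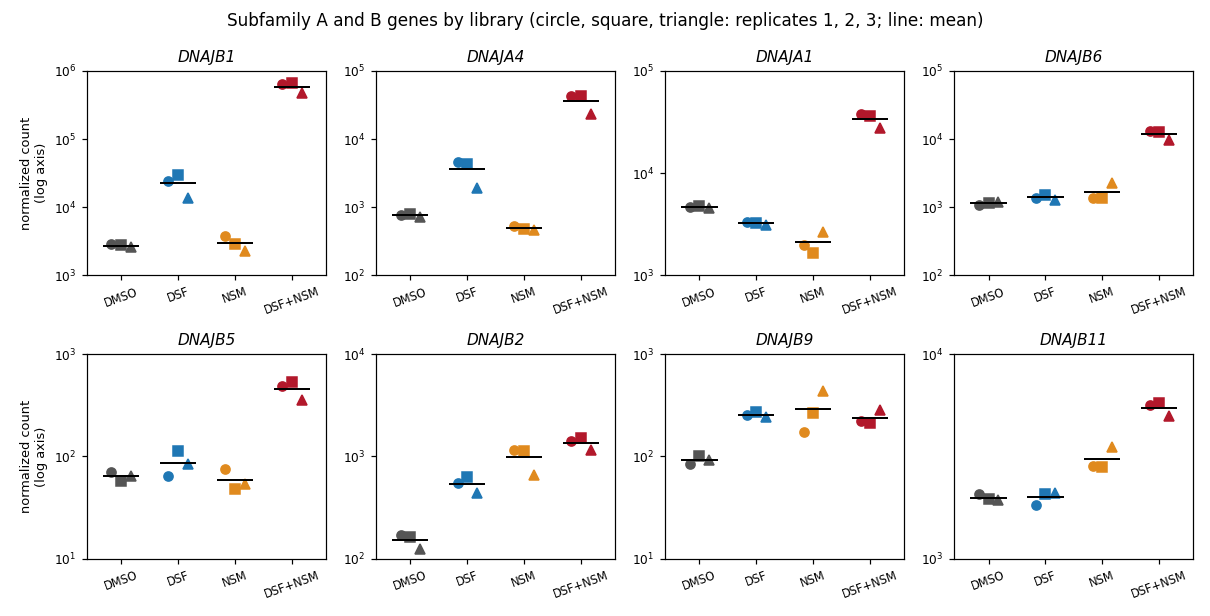
Points are the normalized counts of 8 subfamily A and B genes in every library on a log axis, with circles, squares and triangles for replicates 1, 2 and 3 and a line at the group mean. DNAJB1, DNAJA4, DNAJA1, DNAJB6 and DNAJB5 stand highest in the 3 DSF+NSM libraries, whereas DNAJB9 overlaps between the 3 treated groups.

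Among the cytosolic and nuclear B genes, DNAJB6, known for holding back aggregation of polyglutamine proteins, was at 1084 to 1204 in DMSO, 1280 to 1523 in DSF, 1373 to 2244 with NSM and 9700 to 13291 in DSF+NSM libraries. It rose 10.2-fold with both drugs (log2 fold change 3.36 ± 0.19, limma adjusted p = 4.75e-08). The changes with a single drug were 0.28 ± 0.19 for DSF (limma adjusted p = 0.332) and 0.49 ± 0.19 for NSM (limma adjusted p = 0.0445). The latter call held only without NSM replicate 1, NSM replicate 2 or DSF+NSM replicate 3, with adjusted p of up to 0.124 from limma in the 9 other refits that leave out 1 library, and it was lost with equal sums, where its adjusted p from limma was 0.299. The annotation lists 8 DNAJB6 pseudogenes.

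DNAJB5 was low in DMSO, at 69.9, 57.5 and 63.8, and stood at 486, 538 and 353 in DSF+NSM libraries. Its DSF values of 63.6, 112 and 84.9 and NSM values of 74.7, 47.5 and 53.7 overlapped DMSO. The log2 fold change with both drugs was 2.81 ± 0.25, or 7.02-fold (limma adjusted p = 2.15e-06), and neither single drug was called.

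DNAJB2, which directs ubiquitinated clients to the proteasome, behaved differently in that each drug raised it. Its values were 170, 165 and 124 in DMSO, 546, 626 and 443 in DSF, 1161, 1130 and 655 with NSM, and 1408, 1525 and 1142 in DSF+NSM libraries. It rose by 1.81 ± 0.23 on the log2 scale after DSF (limma adjusted p = 0.000295), by 2.64 ± 0.23 after NSM (limma adjusted p = 3.19e-06) and by 3.15 ± 0.23 with the combination (limma adjusted p = 4.49e-07). DSF+NSM and NSM overlapped, with a difference of 0.50 ± 0.23 (limma adjusted p = 0.104). DNAJB4, a close relative of DNAJB1 that also holds an element of 2 units in its window, was at 108 to 177 in DMSO and 126 to 210 in DSF+NSM libraries. Its log2 fold change with both drugs was 0.15 ± 0.44 (limma adjusted p = 0.792), with an interval from -0.80 to 1.10. In NSM libraries DNAJB4 was at 83.2 and 95.2 in replicates 1 and 2 and at 342 in replicate 3. Without NSM replicate 3 it was called lower with NSM, at -0.70 (limma adjusted p = 0.0225), and still not called with both drugs against DMSO. In that refit DSF+NSM was called higher than DSF and than NSM (limma adjusted p = 0.0376 and 0.00968). The DNAJB4 interaction was then called above 0, at 1.27 (limma adjusted p = 0.00552).

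The 2 membrane-anchored B genes that serve quality control at the endoplasmic reticulum from its cytosolic face rose less. DNAJB12 went from 571 to 703 in DMSO to 950 to 1053 in DSF and 1069 to 1221 in DSF+NSM libraries, with log2 fold changes of 0.65 ± 0.13 and 0.88 ± 0.13 (limma adjusted p = 0.00622 and 0.000154), the latter lost with equal sums. DNAJB14 rose with NSM by 1.10 ± 0.28 (limma adjusted p = 0.00573) and with both drugs by 0.73 ± 0.28 (limma adjusted p = 0.0407). The DNAJB14 call for both drugs was lost without any 1 of the 3 DMSO libraries, DSF replicate 2, or DSF+NSM replicate 1 or 3 (adjusted p up to 0.113 from limma), and its sign turned with equal sums, at -0.047.

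The list set for the endoplasmic reticulum lumen and membrane held 5 genes. They were DNAJB9 and DNAJB11, both cochaperones of BiP, DNAJC1, DNAJC3 and the disulfide reductase DNAJC10. It does not hold every member at this place. DNAJB12 and DNAJB14 were described above, and DNAJC14, described below, fell with NSM and with both drugs. Of the 5 listed, 1 was called with DSF, higher, 4 with NSM, all higher, and all 5 with both drugs, 4 higher and 1 lower. Beside these, 17.8%, 49.1% and 52.8% of all genes were called, so that the DSF count is near the background. DNAJB9 was at 84.0, 101 and 91.2 in DMSO, 256, 269 and 243 in DSF, 173, 264 and 440 with NSM, and 221, 210 and 284 in DSF+NSM libraries. All 9 treated libraries lay above DMSO and the treated groups overlapped each other. Its rise was 1.47 ± 0.27 on the log2 scale after DSF, 1.55 ± 0.27 after NSM and 1.35 ± 0.27 with the combination (limma adjusted p = 0.00351, 0.000524 and 0.00117), and the last was not called with equal sums (limma adjusted p = 0.0894).

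DNAJB11 was at 1934 to 2065 in DMSO and 1824 to 2099 in DSF, at 2798 to 3512 with NSM and at 4979 to 5735 in DSF+NSM libraries, so that only the DSF libraries overlapped DMSO. Its log2 fold change was 0.61 ± 0.12 for NSM and 1.45 ± 0.12 for DSF+NSM (limma adjusted p = 0.00121 and 1.16e-06). DNAJC1 was at 709 to 730 in DMSO, 613 to 841 in DSF, 2120 to 2459 with NSM and 1707 to 1912 in DSF+NSM libraries. It rose by 1.64 ± 0.13 with NSM and 1.33 ± 0.13 with both drugs (limma adjusted p = 1.81e-06 and 5.13e-06). NSM was the higher of the pair in every library, although the difference of -0.31 was not called (limma adjusted p = 0.0858) except with equal sums, at -0.82 (limma adjusted p = 0.000221).

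DNAJC3, a lumenal cochaperone that also restrains kinases of translation initiation, rose from 932 to 1103 in DMSO to 1614 to 2548 with NSM and 2041 to 2404 in DSF+NSM libraries, by 0.87 ± 0.17 and 1.10 ± 0.17 on the log2 scale (limma adjusted p = 0.00106 and 0.000157). With equal sums the latter was no longer called (limma adjusted p = 0.127). DNAJC10 was the exception of the group. It was at 1516 to 1690 in DMSO and 751 to 1201 in DSF+NSM libraries and fell by 0.84 (limma adjusted p = 0.0334), a call lost without any 1 of the 3 DMSO libraries or DSF+NSM replicate 1 or 2 (adjusted p up to 0.114 from limma). In NSM libraries it was at 657, 926 and 1870, replicate 3 being above every DMSO library. Without NSM replicate 3 DNAJC10 was called lower with NSM, at -1.03, and with DSF (limma adjusted p = 0.000225 and 0.0125). Its interaction was then called above 0, at 0.77 (limma adjusted p = 0.0200).

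The list set for mitochondria held 4 C genes, which were lower or not called in every comparison with DMSO. It was not made to hold every C gene at this place. Called lower were 1 with DSF, 3 with NSM and 3 with both drugs, beside 5.95%, 23.7% and 24.5% of all genes. DNAJC11, of the complex that shapes inner membrane folds, was at 885, 875 and 987 in DMSO, 753, 798 and 932 in DSF, 424, 434 and 326 with NSM, and 441, 440 and 349 in DSF+NSM libraries. The NSM and DSF+NSM libraries overlapped each other and lay below all others. DNAJC11 fell by 1.22 with NSM and by 1.16 with both drugs (limma adjusted p = 5.80e-05 and 6.27e-05), and it shares 1419 exonic bases with THAP3 on the opposite strand.

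DNAJC19, a J protein of the mitochondrial import motor, was the only C gene called with DSF. Its values were 719, 670 and 606 in DMSO, 373, 374 and 482 in DSF, 304, 404 and 305 with NSM, and 305, 363 and 255 in DSF+NSM libraries. It fell by 0.70 with DSF, 0.99 with NSM and 1.12 with both drugs (limma adjusted p = 0.0192, 0.000725 and 0.000231). The DSF call was lost on leaving out replicate 1 or 2 of DSF or of DMSO (adjusted p up to 0.0943 from limma), and 9 pseudogenes are annotated.

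DNAJC30, which binds the ATP synthase, fell by 1.75 with NSM and by 1.09 with both drugs (limma adjusted p = 4.45e-06 and 0.000119). It was at 391 to 438 in DMSO, 98.4 to 140 with NSM and 181 to 200 in DSF+NSM libraries, so that NSM alone gave the lowest values. DNAJC15, a relative of DNAJC19 in the import motor, was at 121 to 133 in DMSO, 131 to 207 with NSM and 82.1 to 92.7 in DSF+NSM libraries. Its log2 fold change with both drugs was -0.55 ± 0.24 (limma adjusted p = 0.0671), without a call although the groups do not overlap, and it was called with equal sums, at -1.33 (limma adjusted p = 0.000314).

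**Figure D4:**
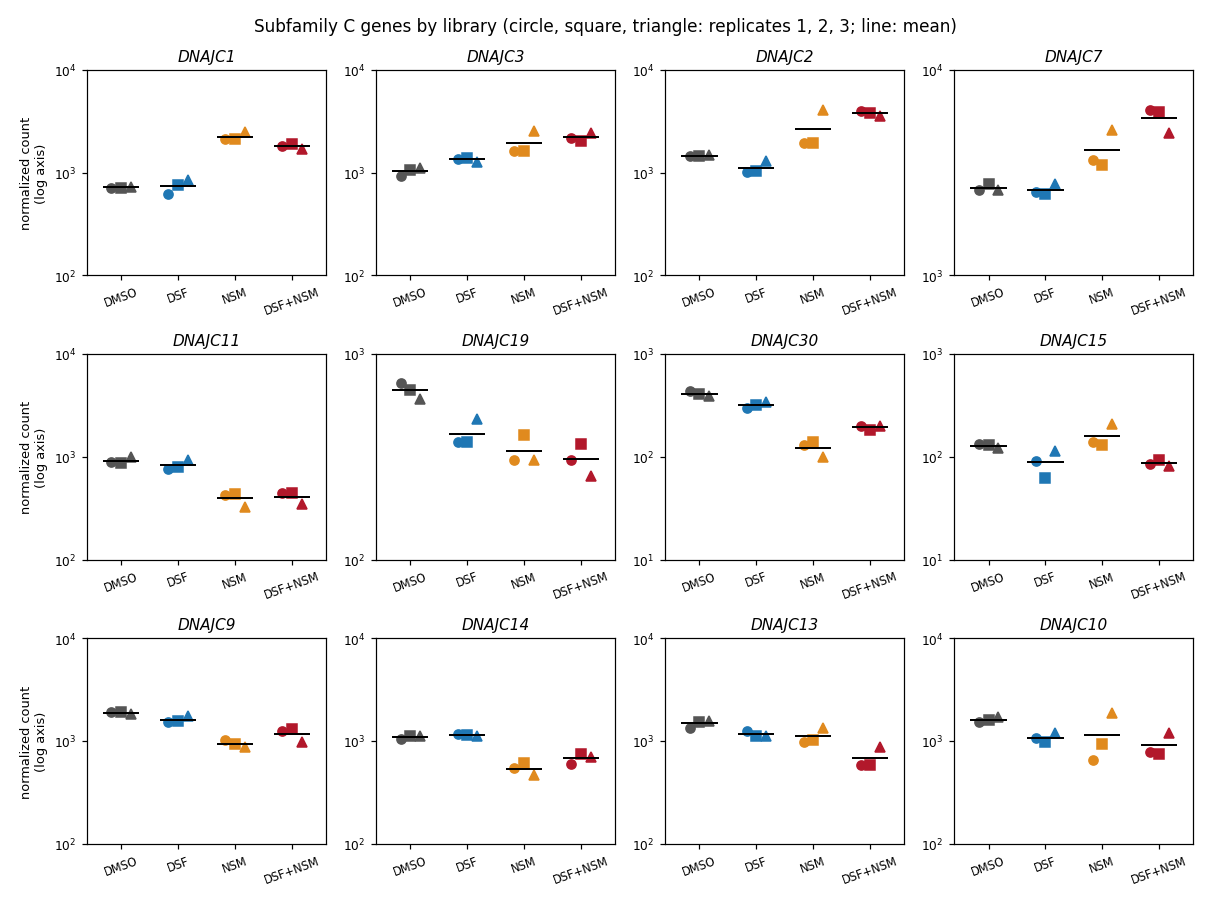
Points are the normalized counts of 12 subfamily C genes in every library on a log axis, with symbols for replicates 1, 2 and 3 and a line at the group mean. DNAJC1, DNAJC3, DNAJC2 and DNAJC7 are highest with NSM or both drugs, while DNAJC11, DNAJC19 and DNAJC30 are lowest there.

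Of the C genes with tasks in the cytosol and nucleus, DNAJC2, a chaperone of the ribosome exit site, was at 1451 to 1469 in DMSO, 1012 to 1284 in DSF, 1919, 1932 and 4069 with NSM, and 3540 to 3958 in DSF+NSM libraries. It rose by 0.76 ± 0.23 with NSM and 1.36 ± 0.23 with both drugs (limma adjusted p = 0.0176 and 0.000384), and with equal sums only the latter was called. DNAJC2 shares 1400 exonic bases with PMPCB on the opposite strand. DNAJC7 rose from 2602 to 2780 in DMSO to 3436 to 5120 with NSM and 4933 to 6338 in DSF+NSM libraries, by 0.59 ± 0.15 and 1.12 ± 0.15 (limma adjusted p = 0.00756 and 6.95e-05), the former not called with equal sums (limma adjusted p = 0.0752). The libraries were made with TruSeq RNA v2, a preparation that does not mark strand, so reads in exons shared with an opposite gene cannot be told apart from reads of that gene.

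DNAJC9, a cochaperone of histones, fell by 1.01 with NSM and 0.69 with both drugs (limma adjusted p = 5.74e-05 and 0.000788), from 1845 to 1915 down to 866 to 1015 and 977 to 1310. Its exons share 1819 bases with FAM149B1 on the opposite strand. DNAJC14, which aids export of receptors from the endoplasmic reticulum, fell by 1.03 and 0.70 (limma adjusted p = 5.80e-05 and 0.000834). DNAJC13, of the early endosome, fell by 1.14 with both drugs alone among the treatments (limma adjusted p = 0.000157), from 1337 to 1570 down to 584 to 873, and with equal sums it was also called with NSM, at -0.70 (limma adjusted p = 0.0106). DNAJC8 fell by 0.56 with NSM (limma adjusted p = 0.0262), where replicate 3 was at 3350 and the others at 1965 and 1809, beside 3290 to 3434 in DMSO. Without NSM replicate 3 it was still called, and the call was lost without DMSO replicate 1, 2 or 3 or NSM replicate 1 or 2 (adjusted p up to 0.109 from limma).

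DNAJC21, a factor of ribosome assembly, rose by 0.74 ± 0.16 with NSM (limma adjusted p = 0.00260), from 974 to 1041 to 1424 to 2296, and was at 1014 to 1068 with both drugs, where the difference of 0.06 became -0.72 with equal sums. DNAJC27 rose by 1.53 ± 0.30 with NSM (limma adjusted p = 0.00124) from 33.8 to 42.2 to 77.1, 92.1 and 187. DNAJC24, needed for the diphthamide modification of elongation factor, fell by 0.66 with both drugs (limma adjusted p = 0.0416), a call that held only without NSM replicate 1, 2 or 3 among the refits that leave out 1 library (adjusted p up to 0.126 from limma). DNAJC5, the cysteine string protein of vesicle release, and the splicing-associated DNAJC17 were not called against DMSO with any treatment in the fit of all 12 libraries. With equal sums both were called lower with both drugs, at -0.82 and -0.57 (limma adjusted p = 0.00818 and 0.00891). Without NSM replicate 3 DNAJC5 was called higher with DSF and with NSM (limma adjusted p = 0.000463 and 0.000238). In that refit its interaction was called below 0, at -1.14 (limma adjusted p = 1.45e-05). Without DSF+NSM replicate 3 DNAJC17 was called higher with both drugs (limma adjusted p = 0.0300). DNAJC5 was at 1797 to 2001 in DMSO, 2709 to 2822 in DSF, 1428 to 2962 with NSM and 1705 to 2171 in DSF+NSM libraries. Of the remaining C genes, DNAJC18 was at 50.9 to 91.6 in DMSO and 127 to 254 in DSF+NSM libraries and rose by 1.15 ± 0.28 (limma adjusted p = 0.00404). DNAJC4, DNAJC16 and DNAJC25 were not called against DMSO in the fit of all 12 libraries. Without NSM replicate 3 DNAJC4 was called higher with NSM and with both drugs. In the same refit DNAJC25 was called lower with DSF and higher with both drugs. Without NSM replicate 1 DNAJC16 was called higher with NSM. DNAJC16 was at 198 to 233 in DMSO, 208 to 268 in DSF, 241 to 412 with NSM and 129 to 225 in DSF+NSM libraries.

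The lowest members passed the filter through few libraries. DNAJC12 reached 10 in 3 libraries of 3 groups, DNAJC6 in 4 libraries of 3 groups, and DNAJC5B in 8 libraries, none of them DMSO. DNAJC28 reached 10 in the 3 DSF+NSM libraries, at 15.5, 17.7 and 26.6, and in NSM replicate 3, at 17.6, beside 4.45 to 7.80 in DMSO, so its filter favoured a difference. DNAJC5B, at 5.88 to 7.07 in DMSO and 17.5 to 22.2 in DSF+NSM libraries, rose by 1.51 ± 0.38 (limma adjusted p = 0.00505) under the same reservation. The antisense row DNAJC3-AS1 was at 96.1 to 108 in DMSO, 78.6 to 89.1 in DSF, 40.2 to 84.4 with NSM and 84.4 to 159 in DSF+NSM libraries, and was called lower with NSM (log2 fold change -0.74 ± 0.28, limma adjusted p = 0.0439). That call held only without NSM replicate 3 or DSF+NSM replicate 2 or 3 among such refits (adjusted p up to 0.170 from limma).

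The combination was then compared with each drug directly. Against DSF, 19 of 39 DNAJ genes were called (43.1% of all genes), 14 higher (21.7% of all genes) and 5 lower (21.4% of all genes). With equal sums 11 were higher and 15 lower, beside 985 and 7258 of all 13502 genes. Without NSM replicate 3 the count was 30, where 60.1% of all genes were called. Against NSM, 16 were called (38.6% of all genes), 10 higher (20.3%) and 6 lower (18.3%). With equal sums 7 were higher and 15 lower, beside 1326 and 6065 of all genes. In subfamily B 5 of 9 were higher against DSF and 5 of 9 against NSM, and none was lower in either. DNAJB1 was 4.77 ± 0.26 higher against DSF and 7.64 ± 0.26 higher against NSM on the log2 scale (limma adjusted p = 2.63e-07 and 9.72e-10). DNAJA1 was 3.38 ± 0.16 and 4.02 ± 0.16 higher (limma adjusted p = 1.37e-07 and 6.05e-09). DNAJC30 was 0.72 lower than with DSF, at -0.72 ± 0.16, and 0.66 ± 0.16 higher than with NSM (limma adjusted p = 0.00337 and 0.00659), the latter not called with equal sums.

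Whether the effect of NSM depended on DSF was tested as the interaction, the log2 change from DSF to DSF+NSM minus that from DMSO to NSM. It was called for 14 of 39 DNAJ genes (35.9%), against 26.1% of all genes. Above 0 were 11, beside 12.1% of all genes, and below 0 were 3, beside 14.0%. Among members with a mean of at least 50 in a group the largest were DNAJB1 at 4.68 ± 0.36 (limma adjusted p = 1.27e-05), DNAJA1 at 4.56 ± 0.23 (limma adjusted p = 4.12e-07) and DNAJA4 at 3.997 ± 0.43 (limma adjusted p = 9.73e-05), followed by DNAJB6 at 2.59 ± 0.26 and DNAJB5 at 2.54 ± 0.35 (limma adjusted p = 6.42e-05 and 0.000380). For these 5 genes the rise with both drugs exceeded the sum of the separate log2 changes, and they were the only DNAJ genes called above 0 with equal sums. In that scaling 10 DNAJ genes were called below 0, beside 3868 of all 13502 genes below and 916 above. DNAJB9 at -1.67 ± 0.38 and DNAJB2 at -1.30 ± 0.33 lay below 0 (limma adjusted p = 0.00726 and 0.0117), the rise with both drugs being smaller than that sum. These 7 calls held in all 12 refits without 1 library.

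The remaining calls of the interaction were weaker. DNAJB11 at 0.84 ± 0.17 and DNAJC30 at 1.03 ± 0.23 held in every refit without 1 library (limma adjusted p = 0.00358 and 0.00576) but not with equal sums (limma adjusted p = 0.0553 and 0.0675). DNAJC2, DNAJC8, DNAJC9, DNAJC16 and the low DNAJC28 each lost the call in 9 or 10 of the 12 refits. The count over all members was 9 without DMSO replicate 1, 2 or 3, DSF replicate 2, NSM replicate 2, or DSF+NSM replicate 1 or 2. In those refits 19.4% to 24.3% of all genes were called. Without NSM replicate 3 the count was 21, beside 45.7% of all genes.

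**Figure D5:**
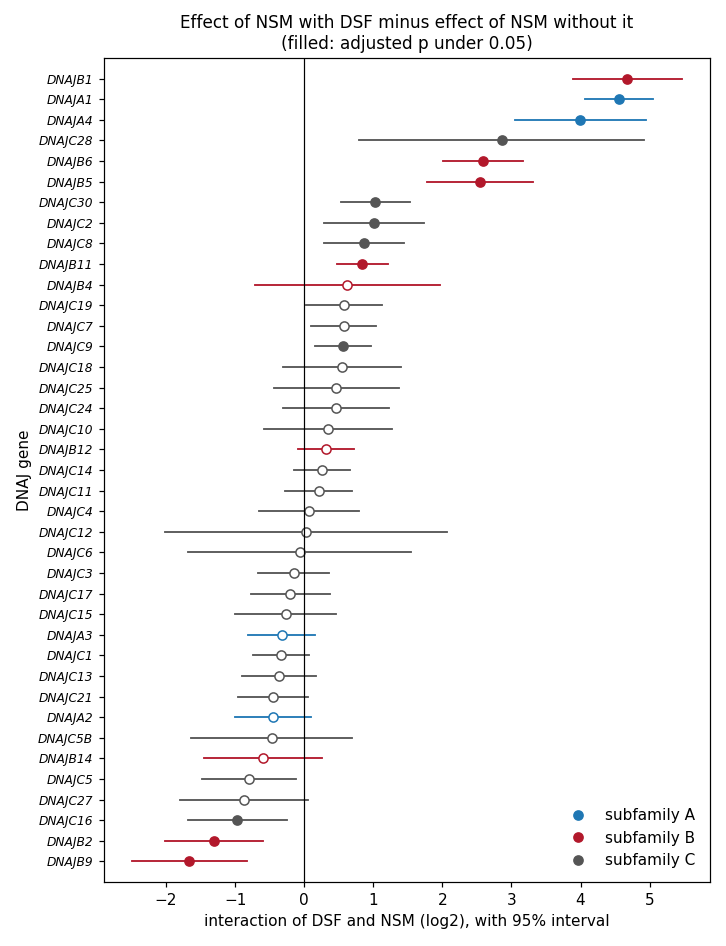
Each point is the interaction of DSF and NSM for 1 DNAJ gene on the log2 scale (horizontal axis) with its 95% interval, coloured by subfamily and filled where the adjusted p from limma was under 0.05. DNAJB1, DNAJA1 and DNAJA4 lie highest, at 4.68, 4.56 and 3.997, and DNAJB2 and DNAJB9 lie lowest, at -1.30 and -1.67.

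The partners of the family were described in the same way. Their counts stand beside 11.9% of all genes called higher and 5.95% lower with DSF, 25.4% and 23.7% with NSM, and 28.3% and 24.5% with both drugs. With equal sums 1534 of 13502 genes were called higher and 7582 lower with both drugs. Of 14 HSP70 and HSP110 genes tested, 5 were called higher and 2 lower with DSF, 3 higher and 5 lower with NSM, and 12 higher and none lower with both drugs. Their median log2 fold change with both drugs was 2.30, beside 0.03 over all genes, and with equal sums 8 were called higher and 1 lower with both drugs. The inducible HSP70 gene HSPA1B was at 1153 ± 98.5 in DMSO, 31708 ± 13166 in DSF, 364 ± 62.5 with NSM and 663160 ± 192558 with both drugs (SD, n = 3), and it was called lower with NSM (log2 fold change -1.67). The constitutive HSPA8 rose by 2.34 with both drugs and HSPH1, an HSP110 exchange factor, by 4.58. BiP (HSPA5), partner of DNAJB9 and DNAJB11, was at 12055 ± 428 in DMSO, 19382 ± 1292 in DSF, 39401 ± 5115 with NSM and 58619 ± 10509 with both drugs.

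Of 13 nucleotide exchange factors and regulators of HSP70, 1 was higher and 1 lower with DSF, 3 higher and 5 lower with NSM, and 4 higher and 1 lower with both drugs, a count that became 3 higher and 8 lower with equal sums. The 2 called with DSF (15.4%) were near the 17.8% of all genes, and the 5 called with both drugs (38.5%) were a smaller share than the 52.8% of all genes. BAG3, the exchange factor of aggregate clearance, rose by 2.53 with DSF and 6.83 with both drugs, and the HSP70 and HSP90 organizer STIP1 fell by 0.76 with NSM and rose by 2.26 with both drugs. Among J-domain proteins under other symbols, HSCB was called higher with NSM and with both drugs, at 0.70 and 1.32, both lost with equal sums (limma adjusted p = 0.156 and 0.0626). SEC63 and GAK were not called against DMSO. Of 14 genes of endoplasmic reticulum stress, which include HSPA5, 5 were higher and none lower with DSF, 5 higher and 2 lower with NSM, and 9 higher and 1 lower with both drugs, or 4 of each with equal sums. The shares called were 35.7% with DSF, 50% with NSM and 71.4% with both drugs, beside 17.8%, 49.1% and 52.8% of all genes. Of 8 genes of the mitochondrial import motor, the partners of DNAJC19 and DNAJC15, none was higher and 1 lower with DSF, 3 were higher and 4 lower with NSM, and 1 was higher and 2 lower with both drugs, or none higher and 6 lower with equal sums. In all 12.5% of these were called with DSF, 87.5% with NSM and 37.5% with both drugs, beside those shares of all genes.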

How the data were processed

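RNA sequencing of SHI-1 cells gave 12 libraries, 3 for each of 4 groups taken from the labels. The deposited signal values are normalized counts per gene, which the authors made with DESeq2 as read counts divided by a factor for each library, with 24 libraries named in the headers as the basis. The submitters' processing notes list bcl2fastq 2.19, Trimmomatic, Bowtie2, Picard, featureCounts and hg38, whereas the study's methods describe STAR and Salmon, so how reads shared between genes were counted is uncertain. Of the values above 0, 32.2% to 32.9% were whole multiples of a library's step (tolerance 0.01), so whole reads could not be had and a test for counts was not used. The DNAJ members and the lists of partner genes were chosen with earlier results of these data known.

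A gene entered the fit when 3 or more libraries reached a value of 10, and log2(value + 1) of all 12 libraries was fitted in a single model with limma 3.58.1 in R 4.3.3 (trend and robust options), with Benjamini-Hochberg adjustment over 13502 genes and calls at an adjusted p under 0.05. P-values rest on the spread between the 3 experiments per group, pooled over all 12 libraries and moderated across genes. They therefore do not measure the spread of the groups compared alone. The fold changes of low genes are understated on this scale. Depth was estimated as the sum of the values over the genes in the tables divided by that step, the smallest of the 3 most frequent values of a library. Named genes were the 5 largest called rises and falls per comparison with DMSO and in the interaction, with a mean of at least 50 in the higher group, plus members of the groups by place or task. Further members were named after their values were seen where a count needed them. The lists were HSP70 and HSP110, HSP70 exchange factors and regulators, J-domain proteins under other symbols, endoplasmic reticulum stress, and the mitochondrial import motor. The partner lists were recounted under the other scalings alone. A member of the J-domain list is not reported here.

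Alternatives were scaling by the median of ratios, by the trimmed mean of M values and to equal sums with and without 23 rRNA genes, no filter or at least 10 in every library, the groups compared alone, a replicate block, pseudocounts of 0.1 and 10, library weights, and leaving out each library. Leaving out the 4 libraries numbered 3 together was added after seeing the data. Positions are from GENCODE 44 and promoters from RefSeq (GRCh38.p14). The limma step was tested on simulated data. Python 3.11.15 with numpy 2.4.6, pandas 2.3.3, scipy 1.17.1 and matplotlib 3.10.9 made the summaries and plots.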

Additional observations from a re-analysis of the deposited data

Results flagged for a closer look

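The interaction test singled out 14 protein-coding DNAJ genes and the antisense row DNAJC3-AS1, whose log2 change after NSM depended on whether DSF was given as well. Each value below is that difference, with positive values for a larger rise or smaller fall when DSF was present. DNAJB1, DNAJA1, DNAJA4, DNAJB6 and DNAJB5 stood at 4.68, 4.56, 3.997, 2.59 and 2.54. DNAJB11 and DNAJC30 stood at 0.84 and 1.03, and below 0 were DNAJB2 at -1.30 and DNAJB9 at -1.67. The calls of these 9 genes held when any 1 library was left out.

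The other calls changed when 1 library was left out. DNAJC2 at 1.01, with NSM libraries at 1919, 1932 and 4069, kept its call only without DSF replicate 3 or NSM replicate 3 (limma adjusted p up to 0.0921 otherwise). DNAJC28 at 2.86 reached 10 in the 3 DSF+NSM libraries and NSM replicate 3 alone, so the filter on low values favoured a positive difference and its call is no support for one. It kept the call only without DSF replicate 1 or NSM replicate 3 (limma adjusted p up to 0.103 otherwise). DNAJC8 at 0.87 kept it only without DSF replicate 3, NSM replicate 3 or DSF+NSM replicate 3 (limma adjusted p up to 0.0746 otherwise). DNAJC9 at 0.56 and DNAJC16 at -0.97 kept it only without NSM replicate 1, NSM replicate 3 or DSF+NSM replicate 3 (limma adjusted p up to 0.111 and 0.120 otherwise). DNAJC3-AS1 at 1.26 kept it only without NSM replicate 2, NSM replicate 3 or DSF+NSM replicate 3 (limma adjusted p up to 0.0885 otherwise).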

How the results depend on the processing

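The numbers of DNAJ genes called against DMSO with DSF, with NSM and with both drugs, then with both drugs against DSF, against NSM, and in the interaction, were 7, 21, 26, 19, 16 and 14. Leaving out any 1 library gave 5 to 17, 17 to 24, 22 to 30, 17 to 30, 12 to 22 and 9 to 21. Fitting only the groups compared gave 22 with DSF (54.0% of all genes called, 7289 in place of 2405) and 7 against NSM (18.3%), and no such fit was made for the interaction. Library weights, whose estimation stopped before full convergence, gave 25 with DSF (60.5% of all genes called), 36 with NSM (82.3%), 29 against DSF (67.5%), 28 against NSM (72.4%) and 27 in the interaction (66.2%). Without replicate 3 of all groups the count was 23 with DSF (47.3% of all genes called) and 24 in the interaction (53.6%). The other scalings, filters and pseudocounts left all 6 counts within 1.5 times. With equal sums, however, lower calls outnumbered higher ones in every comparison but DSF against DMSO, where the split stayed at 5 and 2. Among all genes lower calls outnumbered higher ones too, as in 7582 against 1534 with both drugs. The median over all genes was then -0.25 with NSM, -0.74 with both drugs, -0.67 against DSF, -0.48 against NSM and -0.40 in the interaction. The cause of these differences was not tested.

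The correlation of deviations from the group means was over 0.1 in 2 of 18 pairs with the same replicate number in different groups (median 0.057, range -0.064 to 0.278). Among pairs with different numbers it was over 0.1 in 3 of 36 (median -0.0265, range -0.233 to 0.239). These small and overlapping values cannot decide whether the replicate numbers pair the libraries. With the replicate number as a block the counts were 6, 23, 25, 19, 18 and 13 in the order above. Of all genes 18.7%, 50.7%, 53.9%, 44.3%, 40.0% and 27.0% were then called.

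Over 33 named genes, 6 comparisons and 24 alternatives, 4175 of 4713 values kept direction and side of the threshold, 245 became called, 151 lost the call, 129 changed sign without a call in either fit, and 13 changed sign with a call in at least one. With both drugs against DMSO these were DNAJA2 at -0.65 with equal sums and -0.53 without rRNA, DNAJC17 at -0.57 and -0.45, DNAJC21 at -0.72 and -0.59, and DNAJB14 at -0.047 with equal sums. Against DSF they were DNAJB12 at -0.46 and -0.37 and DNAJC15 at -0.66, and against NSM DNAJC11 at -0.46 and DNAJC17 at -0.50 with equal sums. DNAJA3 with NSM was at 0.12 with library weights.

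With 3 libraries per group and an estimated 10.2 to 19.0 M reads, members near 10, such as DNAJC6, DNAJC12, DNAJC5B and DNAJC28, had standard errors too wide for small changes to be seen.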
